A study of Mus musculus with 18 samples.

Results

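Fatty acid oxidation genes encode the enzymes that activate long-chain fatty acids, carry them into mitochondria and shorten them to acetyl-CoA, with a few peroxisomal relatives. The 39 genes described here were taken by name from a list written by pathway step, and all 39 were found among the 48709 genes of the deposited count table. They were 9 genes of activation and the carnitine shuttle, 2 that set malonyl-CoA, 6 acyl-CoA dehydrogenases, 3 genes of electron transfer, 6 of hydration to thiolysis, 4 auxiliary enzymes, 5 peroxisomal genes, and 4 thioesterase and uncoupling genes. Polyadenylated RNA of the left ventricle of male wild-type C57BL/6J mice, aged 12 weeks in the design text, was sequenced in 18 libraries. In 6 libraries the mice had received isoproterenol, a β-adrenergic agonist, at 30 mg/kg/day from an osmotic pump, together with 50 mg/kg minocycline, a tetracycline antibiotic, injected daily into the peritoneum. In 6 libraries they had received isoproterenol at the same rate, and in 6 control libraries neither drug, with sterile saline in place of the drugs per the design text. Tissue was taken after 21 days. A group given minocycline alone is not analysed here, so an action of minocycline without isoproterenol was not measured.

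Long-chain fatty acids are the main fuel of the adult heart. They are joined to CoA, passed over the mitochondrial membranes as carnitine esters by CPT1, the carnitine-acylcarnitine carrier and CPT2, and then shortened in repeated rounds of dehydrogenation, hydration, a second dehydrogenation and thiolysis. Malonyl-CoA blocks CPT1, and the genes of the pathway are known targets of the nuclear receptors PPARα and ERRα in the heart.

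Libraries held 14203041 to 22688664 counts, of which 40.1 to 47.7% came from mitochondrially encoded genes. Neither quantity separated a pair of groups past 0.05 in 2-sided exact permutation tests (p = 0.0606 to 0.665). All 10 cardiomyocyte markers were present in every library. The atrial marker Myl7 exceeded 80 CPM in 4 libraries (Control 5, Control 6, Isoproterenol 5, and Isoproterenol and minocycline 2), and calls lost without these 4 are named beside the results. The labels speak of pooled RNA, so whether a library is 1 animal is uncertain, and p-values measure the spread between libraries.

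The 39 genes differed widely in level. On the TPM scale, which divides by gene length, Acaa2, the thiolase of the mitochondrial matrix, led the control libraries with 593 ± 63.1 TPM (SD, n = 6). Ech1 (557 ± 49.7 TPM), Acadl (518 ± 42.6 TPM) and Etfb (496 ± 29.6 TPM) followed, each within about 1 SD of its neighbour in that order. The lowest were Ehhadh (4.38 ± 0.713 TPM), Acox3 (3.40 ± 0.247 TPM) and Acsl3 (1.19 ± 0.138 TPM). Cpt1b, the muscle form of the carnitine palmitoyltransferase that faces the cytosol, stood at 224 ± 17.5 TPM, and Cpt1a, the liver form, at 11.8 ± 1.05 TPM. All further levels are in CPM (counts over a library size scaled by TMM, the trimmed mean of M-values) and compare libraries for 1 gene.

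Promoter windows of RefSeq (GRCm38.p6, 250 bases before to 50 after the annotated start) were matched by symbol and searched for 32 of the 39 genes, with 33 windows. No window was used for Acad9, Acot13, Crat, Decr1 and Cpt1b. Acaa2 and Hsd17b4 were left out of the search, so the counts of motifs do not cover them. A stretch is shown for Hadh, whose fall was the largest after that of Acot1 in both comparisons with control. The shared stretch of Hadha and Hadhb, both lower in those comparisons, is shown too. Acadm is shown because it holds the only receptor half-site found before a start in the 33 windows searched. The Hadh stretch is the 250 bases before its start (chr3:131272102-131272351, minus strand), with GGGCGG on either strand (a GC box) and CCAAT in capitals.
Hadh: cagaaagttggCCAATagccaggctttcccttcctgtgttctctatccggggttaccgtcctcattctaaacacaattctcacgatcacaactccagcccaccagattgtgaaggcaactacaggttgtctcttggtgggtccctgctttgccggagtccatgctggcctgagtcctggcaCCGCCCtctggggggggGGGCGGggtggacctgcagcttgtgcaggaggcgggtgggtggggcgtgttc
Hadha and Hadhb lie head to head on chromosome 5. The 85 bases between their 2 annotated spans (chr5:30155163-30155247, plus strand) had 69.4% G and C and 2 GC boxes, in capitals.
Hadha-Hadhb: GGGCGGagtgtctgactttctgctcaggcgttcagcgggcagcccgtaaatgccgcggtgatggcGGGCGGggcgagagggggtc
The Acadm stretch is the 250 bases before its start (chr3:153944644-153944893, minus strand), with the reverse complement of AAGGTCA, the half-site of estrogen-related receptors, in capitals.
Acadm: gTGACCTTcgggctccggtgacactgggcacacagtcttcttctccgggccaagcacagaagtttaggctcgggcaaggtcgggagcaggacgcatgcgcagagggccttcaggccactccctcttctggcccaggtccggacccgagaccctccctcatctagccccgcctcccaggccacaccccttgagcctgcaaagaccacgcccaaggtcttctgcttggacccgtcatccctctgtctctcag
AAGGTCA on either strand was found in 2 of the 33 windows (6.06%, in Acadm before the start and in Acacb after it), against 4.72% of all 32851 windows. The extended half-site TNAAGGTCA, which contains it, was found in 0 windows of these genes and in 1.28% of all windows. The direct repeat spaced by 1 base (DR1), bound by PPAR with RXR, was in 0 and in 0.381%. Both motifs are too rare among all windows for a count of 0 in 33 windows to tell anything. GC boxes were found in 24 of 33 windows (72.7%), against 35.7% of all windows, and CCAAT in 17 (51.5%), against 37.4%. Both motifs were added to the search after the data were seen. The set of all windows was not limited to genes that passed the count filter, as all 39 genes did. The share among windows of such genes was not counted. A GC box was held by 14 of the 19 genes with a searched window that were lower after isoproterenol and by 10 of the other 13. These are matches of letters and not measured binding.

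Isoproterenol was compared with control to ask how sustained β-adrenergic stimulation left the pathway. Most of its mitochondrial steps were lower. The largest fold change was that of the thioesterase gene Acot1 (2.68-fold), followed by Hadh (1.60-fold), Hadhb (1.51-fold) and Eci1 (1.505-fold). Of the 39 genes, 24 were called lower and 1 higher at an adjusted p under 0.05 (edgeR's quasi-likelihood test, Benjamini-Hochberg over 13281 genes), where 5.62% of all genes were called lower and 6.94% higher. The median log2 fold change was -0.34 over the 39 genes and 0.0011 over all genes. In 20 genes every isoproterenol library lay below every control library, against 3.25% of all genes. Without the 4 libraries high in Myl7, 19 of the 39 were called lower and 0 higher, with the calls of Acsl3, Cpt1b, Acacb, Acad9, Etfdh and Acot2 lost (adjusted p = 0.0541 to 0.258, edgeR). That fit of fewer libraries called 309 of all 13355 genes lower and 372 higher, against 747 and 922 of 13281 with all libraries. With the level of atrial markers as a covariate in all 18 libraries, 25 of 25 calls were kept. In bulk tissue, fewer cells of a type and less RNA per cell cannot be told apart.

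**Figure D1:**
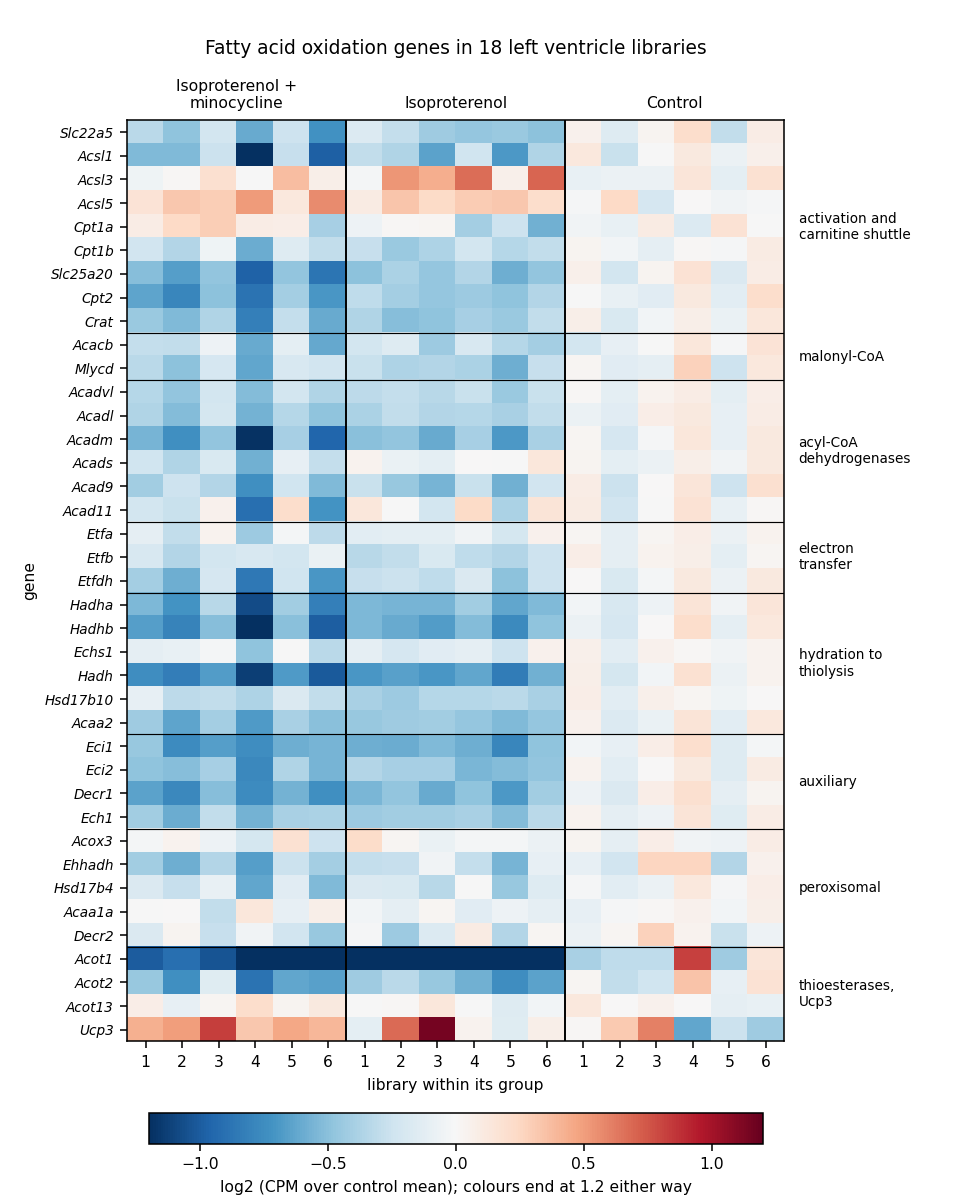
Level of each of the 39 genes (rows, by pathway step) in each library (columns) as the log2 of its CPM over the control mean, with isoproterenol and minocycline at left, isoproterenol in the middle and control at right. Most rows are blue in both treated groups, Acsl5 is red in all 12 treated libraries, and Isoproterenol and minocycline 4 is the darkest column.

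In activation and the carnitine shuttle, 5 of 9 genes fell and 1 rose. Crat, the carnitine acetyltransferase that buffers acetyl-CoA, had 306, 327 and 357 CPM (lowest, median, highest) in isoproterenol libraries, against 386, 443 and 480 CPM in control libraries. The groups did not overlap, and Crat fell by 0.41 on the log2 scale (SE 0.076, adjusted p = 0.00105, edgeR). Cpt2, which releases acyl-CoA in the matrix, had 123, 128 and 138.5 CPM in isoproterenol libraries, against 155, 166 and 198 CPM in control libraries (log2 fold change -0.41, SE 0.077, adjusted p = 0.00133, edgeR). Slc25a20, the carnitine-acylcarnitine carrier of the inner membrane, had 87.0, 94.2 and 102 CPM in isoproterenol libraries, against 112, 134 and 146 CPM in control libraries (log2 fold change -0.45, SE 0.086, adjusted p = 0.00135, edgeR). Each of these genes was lower in all 6 isoproterenol libraries than in any control library.

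The 2 forms of CPT1 were not alike in level. Cpt1b (chr15:89416405-89425863, minus strand) had 386, 420 and 450.5 CPM in isoproterenol libraries, against 488, 524 and 563 CPM in control libraries, with no overlap (log2 fold change -0.32, SE 0.070, adjusted p = 0.00413, edgeR). Its annotation overlaps Chkb on the same strand, which had 8.69% as many counts, and with the 4 Myl7-high libraries left out the adjusted p was 0.0569. Cpt1a had 23.7, 31.8 and 35.8 CPM in isoproterenol libraries and 31.5, 34.8 and 39.9 CPM in control libraries. These groups overlapped and Cpt1a was not called (log2 fold change -0.19, SE 0.11, adjusted p = 0.272, edgeR). The log2 ratio of Cpt1a to Cpt1b averaged -3.78 ± 0.30 in isoproterenol and -3.89 ± 0.16 in control libraries (SD, n = 6 each, exact permutation p = 0.411, adjusted p = 0.617 over 12 ratio tests).

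Slc22a5, the plasma membrane carnitine transporter OCTN2, averaged 15.1 ± 1.39 CPM in isoproterenol and 19.5 ± 2.39 CPM in control libraries (SD, n = 6 each) and fell by 0.37 on the log2 scale (SE 0.096, adjusted p = 0.0143, edgeR). The acyl-CoA synthetases, which activate fatty acids, did not move together. Acsl1, the main long-chain form of the heart, averaged 497 ± 62.4 CPM in isoproterenol and 665 ± 65.1 CPM in control libraries and missed the threshold (log2 fold change -0.42, SE 0.14, adjusted p = 0.0623, edgeR). Acsl5 averaged 15.4 ± 0.931 CPM in isoproterenol and 12.9 ± 1.27 CPM in control libraries and also missed it, in the other direction (log2 fold change 0.25, SE 0.084, adjusted p = 0.0523, edgeR). Acsl3 rose to 4.83 ± 0.979 CPM in isoproterenol libraries, against 3.61 ± 0.336 CPM in control libraries (log2 fold change 0.43, SE 0.13, adjusted p = 0.0322, edgeR). It was higher than the control mean in 5 of 6 libraries, and its call was lost in 8 of 18 fits that left out 1 library (with p between 0.0537 and 0.0761 after adjustment, for Isoproterenol 2, 3, 4 and 6 and Control 1, 2, 3 and 5). Those of Acsl1 (without Control 2 or Isoproterenol and minocycline 4, adjusted p = 0.0142 to 0.0478) and Acsl5 (in 5 fits, without Control 2, Isoproterenol 1, or Isoproterenol and minocycline 4, 5 or 6, adjusted p = 0.0214 to 0.0474) were gained. Utp14b overlaps Acsl3 on the same strand with 17.99% as many counts.

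Both genes that set malonyl-CoA fell. Mlycd, the decarboxylase that removes malonyl-CoA, had 47.3, 55.2 and 58.9 CPM in isoproterenol libraries, against 59.5, 69.0 and 85.8 CPM in control libraries. The groups did not overlap (log2 fold change -0.37, SE 0.088, adjusted p = 0.00913, edgeR). Acacb, the mitochondrial acetyl-CoA carboxylase that makes it, had 191, 212 and 231 CPM in isoproterenol libraries, against 221, 256 and 288 CPM in control libraries. These groups overlapped, and the call (log2 fold change -0.29, SE 0.092, adjusted p = 0.0440, edgeR) was lost in 9 of 18 fits that left out 1 library (Isoproterenol and minocycline 1, Isoproterenol 1, 3, 5 or 6, or Control 3, 4, 5 or 6, adjusted p = 0.0515 to 0.104), and with the 4 Myl7-high libraries left out (adjusted p = 0.258). The log2 ratio of Acacb to Mlycd averaged 1.94 ± 0.16 in isoproterenol and 1.87 ± 0.18 in control libraries (SD, n = 6 each, exact permutation p = 0.470, adjusted p = 0.626 over 12 ratio tests).

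Of the 6 acyl-CoA dehydrogenases, which start each round, 4 fell. Acadl, the long-chain enzyme, had 552, 568 and 591 CPM in isoproterenol libraries, against 659, 727 and 782 CPM in control libraries (log2 fold change -0.34, SE 0.062, adjusted p = 9.72e-04, edgeR). Acadvl, the very-long-chain enzyme of the inner membrane, had 555, 613 and 627 CPM in isoproterenol libraries, against 695, 768.5 and 802 CPM in control libraries (log2 fold change -0.32, SE 0.060, adjusted p = 0.00126, edgeR). Acadm, the medium-chain enzyme whose promoter stretch is shown above, had 541, 619.5 and 663 CPM in isoproterenol libraries, against 754, 873 and 958 CPM in control libraries (log2 fold change -0.51, SE 0.10, adjusted p = 0.00313, edgeR). In all of these the groups did not overlap.

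Acad9, which also serves complex I assembly, had 20.2, 23.5 and 25.7 CPM in isoproterenol libraries, against 25.3, 31.2 and 34.4 CPM in control libraries. The highest isoproterenol library stood above the lowest control library (log2 fold change -0.39, SE 0.096, adjusted p = 0.0112, edgeR), and with the 4 Myl7-high libraries left out the adjusted p was 0.0541. The short-chain enzyme Acads averaged 126 ± 7.84 CPM in isoproterenol and 126.5 ± 7.80 CPM in control libraries (SD, n = 6 each, log2 fold change -6.6e-04, SE 0.069). Acad11, a dehydrogenase of longer chains, averaged 126 ± 19.9 CPM in isoproterenol and 126 ± 12.1 CPM in control libraries (log2 fold change 6.7e-04, SE 0.15). Neither passed the test, and these were the smallest differences among the 39 genes.

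Electron transfer flavoprotein takes electrons from the dehydrogenases, and its oxidoreductase passes them to ubiquinone. Etfb, its β subunit, had 315, 326 and 353 CPM in isoproterenol libraries, against 371, 410.3 and 424 CPM in control libraries, with no overlap (log2 fold change -0.28, SE 0.053, adjusted p = 0.00126, edgeR). Etfdh, the oxidoreductase, had 327, 381 and 408 CPM in isoproterenol libraries, against 405, 458 and 499.9 CPM in control libraries. The Etfdh groups overlapped by a narrow margin, and its call (log2 fold change -0.29, SE 0.093, adjusted p = 0.0437, edgeR) was lost in 11 of 18 fits that left out 1 library (any control but Control 2, any isoproterenol library but Isoproterenol 4, or Isoproterenol and minocycline 1, adjusted p = 0.0508 to 0.101), and with the 4 Myl7-high libraries left out (adjusted p = 0.233). Etfa, the α subunit, averaged 370.2 ± 23.3 CPM in isoproterenol and 394.5 ± 19.8 CPM in control libraries and was not called (log2 fold change -0.091, SE 0.072, adjusted p = 0.436, edgeR). The subunit transcripts thus differed in proportion: the ratio of Etfa to Etfb counts was 1.03, 1.12 and 1.21 (lowest, median, highest) in isoproterenol libraries, against 0.946, 0.987 and 1.01 in control libraries. The ratio lay higher in all 6 isoproterenol libraries than in any control library (log2 difference 0.19, SE 0.037). The exact permutation p was 0.00217, the smallest that 6 libraries against 6 allow (2-sided, adjusted p = 0.0130 over 12 ratio tests). With the 4 Myl7-high libraries left out the adjusted p was 0.0952. There the unadjusted exact permutation p of 0.0159 was the smallest that 5 libraries against 4 allow. The ratio does not depend on how libraries are scaled.

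The enzymes from hydration to thiolysis had a median log2 fold change of -0.50, and 5 of 6 genes fell. That was the lowest step median, with the auxiliary enzymes close to it at -0.49. Hadh (chr3:131233419-131272101, minus strand), the hydroxyacyl-CoA dehydrogenase of short and medium chains, had 218, 245 and 262 CPM in isoproterenol libraries, against 336.5, 392 and 443 CPM in control libraries. The highest isoproterenol library lay well below the lowest control library (log2 fold change -0.68, SE 0.079, adjusted p = 6.89e-06, edgeR). Hadhb, the thiolase subunit of the trifunctional protein, had 672, 770.1 and 819 CPM in isoproterenol libraries, against 995, 1120 and 1322 CPM in control libraries (log2 fold change -0.59, SE 0.10, adjusted p = 5.97e-04, edgeR). Its partner Hadha, which shares the stretch of 85 bases shown above, averaged 873 ± 40.3 CPM in isoproterenol and 1267 ± 118 CPM in control libraries (SD, n = 6 each, log2 fold change -0.54, SE 0.095, adjusted p = 8.21e-04, edgeR). The Hadha and Hadhb transcripts stood at a ratio of 1.07 to 1.23 in isoproterenol and 1.06 to 1.16 in control libraries (log2 difference 0.057, SE 0.036, exact permutation p = 0.152, adjusted p = 0.303 over 12 ratio tests).

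Acaa2 had 433, 455 and 469 CPM in isoproterenol libraries, against 556, 619.8 and 697 CPM in control libraries (log2 fold change -0.46, SE 0.064, adjusted p = 7.51e-05, edgeR). Hsd17b10, a dehydrogenase of branched and short chains that is also part of mitochondrial RNase P, had 67.5, 70.8 and 72.9 CPM in isoproterenol libraries, against 83.8, 92.1 and 96.3 CPM in control libraries (log2 fold change -0.37, SE 0.053, adjusted p = 9.88e-05, edgeR). Neither pair of groups overlapped. Echs1, the short-chain enoyl-CoA hydratase, averaged 192 ± 13.8 CPM in isoproterenol and 209 ± 10.01 CPM in control libraries and was not called (log2 fold change -0.12, SE 0.073, adjusted p = 0.296, edgeR).

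All 4 auxiliary enzymes, which prepare unsaturated fatty acids for the main cycle, fell without overlap of the groups. Eci1 (chr17:24426683-24439316, plus strand), an enoyl-CoA isomerase, had 105, 119.9 and 129 CPM in isoproterenol libraries, against 162, 177 and 207 CPM in control libraries (log2 fold change -0.59, SE 0.068, adjusted p = 6.64e-06, edgeR). Decr1, the 2,4-dienoyl-CoA reductase, had 178, 201 and 214 CPM in isoproterenol libraries, against 254, 285 and 329 CPM in control libraries (log2 fold change -0.53, SE 0.068, adjusted p = 2.11e-05, edgeR). Ech1, a dienoyl-CoA isomerase, had 616.5, 664 and 709 CPM in isoproterenol libraries, against 801, 882 and 982 CPM in control libraries (log2 fold change -0.41, SE 0.062, adjusted p = 1.33e-04, edgeR). The second isomerase, Eci2, had 70.1, 75.9 and 80.4 CPM in isoproterenol libraries, against 92.2, 104 and 111 CPM in control libraries (log2 fold change -0.45, SE 0.067, adjusted p = 1.55e-04, edgeR).

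None of the 5 peroxisomal genes was called after isoproterenol by edgeR or DESeq2 (2 had an unadjusted p under 0.05), and their log2 fold changes lay between -0.25 and 0.012. Ehhadh, the peroxisomal bifunctional enzyme, had 6.26, 7.56 and 8.96 CPM in isoproterenol libraries, against 7.22, 9.09 and 10.99 CPM in control libraries, with overlap (log2 fold change -0.25, SE 0.11, adjusted p = 0.158, edgeR). Hsd17b4, the other peroxisomal multifunctional enzyme, had 52.5, 63.8 and 72.0 CPM in isoproterenol libraries, against 66.0, 71.6 and 78.9 CPM in control libraries (log2 fold change -0.21, SE 0.088, adjusted p = 0.121, edgeR). Decr2, a peroxisomal reductase, had a log2 fold change of -0.13 (SE 0.11), Acox3, an oxidase of branched chains, one of 0.012 (SE 0.073) and Acaa1a, a thiolase, one of -0.071 (SE 0.062). Acaa1a is uncertain, because Myd88 overlaps it on the other strand with 22.2% as many counts and the counting of strand is not given in the sources used here.

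Acot1 and Acot2 encode a cytosolic and a mitochondrial thioesterase that split long-chain acyl-CoA, and both fell. Acot1 (chr12:84009502-84017670, plus strand) had 2.69, 4.03 and 4.58 CPM in isoproterenol libraries, against 7.80, 8.49 and 18.5 CPM in control libraries. All isoproterenol libraries lay below all control libraries (log2 fold change -1.42, SE 0.19, adjusted p = 6.72e-05, edgeR), and without Control 4, the highest, the log2 fold change was -1.18. Acot2 (chr12:83987861-83993873, plus strand) had 30.9, 36.2 and 41.4 CPM in isoproterenol libraries, against 42.2, 50.5 and 65.6 CPM in control libraries, with a narrow gap (log2 fold change -0.52, SE 0.12, adjusted p = 0.00689, edgeR). Without the 4 libraries high in Myl7 its adjusted p was 0.0748. The 2 transcripts are 94.3% identical over 1330 aligned bases, so counts may be split between them. Their longest identical run, 273 bases of coding sequence in exon 3 of 3 of both (chr12:84017006-84017278 in Acot1, chr12:83992728-83993000 in Acot2, GRCm38, plus strand), is longer than a read of 150 bases and is shown for that reason, from the GENCODE M21 transcripts.
Acot1 and Acot2, shared run: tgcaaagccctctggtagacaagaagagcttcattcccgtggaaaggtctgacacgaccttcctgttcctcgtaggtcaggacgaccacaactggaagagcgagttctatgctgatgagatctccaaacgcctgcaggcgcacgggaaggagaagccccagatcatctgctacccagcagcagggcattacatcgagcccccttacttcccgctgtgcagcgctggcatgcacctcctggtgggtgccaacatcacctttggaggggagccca
Of the windows of 50 bases in the Acot1 transcript, 23.7% occur in that of Acot2. Acot13, a thioesterase of another fold, averaged 208.5 ± 13.4 CPM in isoproterenol and 209 ± 12.5 CPM in control libraries (log2 fold change -0.0034, SE 0.059, adjusted p = 0.980, edgeR). Ucp3, an uncoupling protein of muscle mitochondria, had 29.2, 33.6 and 71.7 CPM in isoproterenol libraries and 21.0, 29.9 and 49.2 CPM in control libraries. Its ranges overlapped over most of their span and it was not called (log2 fold change 0.37, SE 0.23, adjusted p = 0.330, edgeR).

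**Figure D2:**
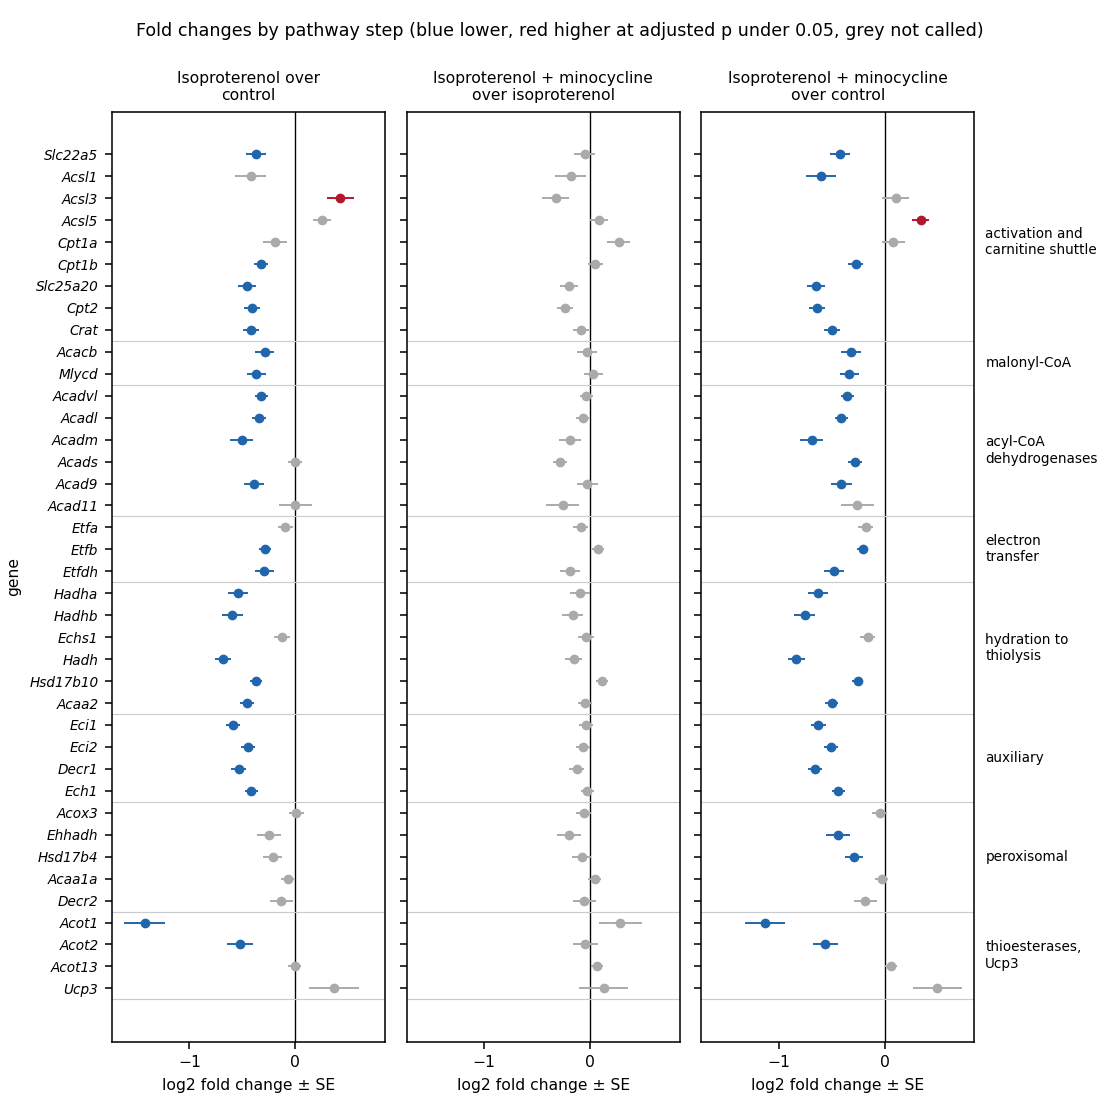
Log2 fold change with its SE (edgeR, n = 6 libraries a group) of each gene by pathway step, for isoproterenol over control, isoproterenol and minocycline over isoproterenol, and isoproterenol and minocycline over control. Blue points (lower) and red points (higher) passed an adjusted p under 0.05, and all 39 points of the middle panel are grey.

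Marker genes of other cell types and of cardiomyocytes also differed in level. The summed level of 10 cardiomyocyte markers was 57510 to 62750 CPM in isoproterenol libraries, against 67670 to 75770 CPM in control libraries, with 3 of 10 called lower (Myh6, Myl2 and Myl3). Ryr2 lay on the other side of 0 (log2 fold change 0.21, SE 0.16). Myh6 alone had a median of 29870 CPM in control libraries, where the sum had 71470 CPM, so the sum and scaling by it depend on Myh6. Whether marker levels followed cell numbers was not tested. Summed fibroblast markers were 2077 to 2801 CPM in isoproterenol libraries, against 1526 to 2027 CPM in control libraries (4 of 8 higher), and macrophage markers 182 to 248 CPM, against 132 to 165 CPM (6 of 8 higher). Mural markers were 696.5 to 927 CPM in isoproterenol libraries, against 595 to 788 CPM in control libraries (2 of 6 higher), and 0 of 7 endothelial, 0 of 5 tested adipocyte and 0 of 3 atrial markers were called by edgeR (1, 0 and 0 at an unadjusted p under 0.05). The adipocyte markers Adipoq, Plin1, Cidec, Lep and Retn were each at 0 counts in at least 1 library. The part of these shifts in the result was not tested. The 39 genes summed to 14.3 to 16.2% of the cardiomyocyte marker sum in isoproterenol libraries, against 15.7 to 18.3% in control libraries. With libraries scaled to the cardiomyocyte markers, the median of all genes moved to a log2 fold change of 0.28 and that of the 39 genes to -0.062. In that scaling 10 genes were called lower (Slc25a20, Acadm, Hadha, Hadhb, Hadh, Acaa2, Eci1, Eci2, Decr1 and Acot1) and 8 higher. Of all 13281 genes, 143 were called lower in it and 6690 higher. With total counts and no scaling factor, the median of all genes was 0.14, and 17 of the 39 were lower and 2 higher. Of all 13281 genes, 243 were called lower there and 2689 higher. The 7 calls lost there were Cpt1b, Slc22a5, Mlycd, Acacb, Acad9, Etfb and Etfdh.

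**Figure D3:**
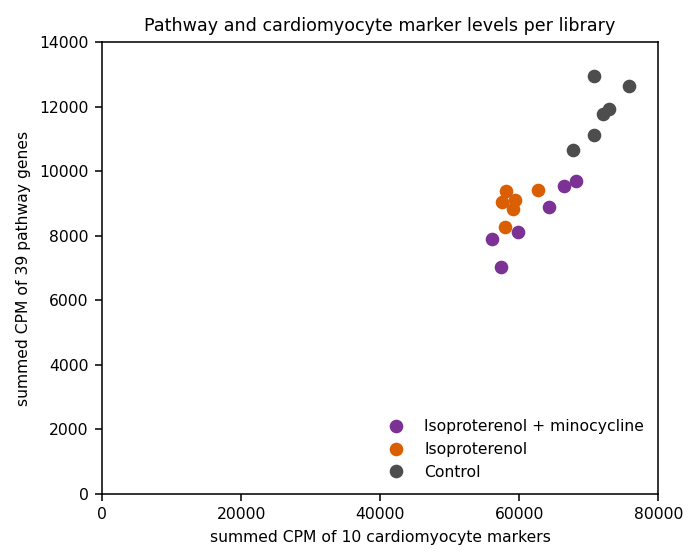
Summed CPM of the 39 genes (vertical axis) against that of 10 cardiomyocyte markers (horizontal axis), 1 point per library, coloured by group. Both sums lie lower in the 6 isoproterenol libraries than in any control library, and the isoproterenol and minocycline libraries run from 7030 to 9695 CPM for the 39 genes.

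A further list of 39 tested genes of fatty acid handling and neighbouring pathways, outside the 39 described, had 9 lower and 1 higher after isoproterenol, with a median log2 fold change of -0.13. Pccb, a propionyl-CoA carboxylase subunit, fell to 61.2 ± 3.45 CPM in isoproterenol libraries, against 81.3 ± 2.71 CPM in control libraries (adjusted p = 7.47e-05, edgeR). Scp2, a sterol carrier with peroxisomal thiolase activity, fell by 0.35 on the log2 scale (SE 0.054). Acat1, the thiolase of ketone body and isoleucine breakdown, fell by 0.40 (SE 0.068), and the thioesterase gene Acot7 fell by 0.36 (SE 0.056).

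Isoproterenol with minocycline was compared with isoproterenol alone to ask whether the antibiotic moved these genes during the infusion. No gene of the 39 was called in either direction, where 0.00753% of all genes were called higher and 0.0452% lower. At an unadjusted p under 0.05 there were 6 genes, against 7.6% of all genes. DESeq2 called 1 of the 39 lower, where it called 23 of all 13281 genes lower and 14 higher. The log2 fold change was below 0 in 29 genes, against 50.7% of all genes, with a median of -0.052 that became -0.016 without Isoproterenol and minocycline 4. The largest standard error among the 39 genes was 0.23 (Ucp3), and 31 were below 0.11.

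Acads, not called after isoproterenol alone, came nearest to the threshold. It had 85.1, 106 and 118.5 CPM in isoproterenol and minocycline libraries, against 117, 127 and 139 CPM in isoproterenol libraries. All 6 libraries with minocycline lay below the isoproterenol mean, and the groups overlapped by a narrow margin. The log2 fold change was -0.28 (SE 0.069, adjusted p = 0.239, edgeR). DESeq2 called it (adjusted p = 0.0343), as did edgeR with libraries scaled to cardiomyocyte markers (adjusted p = 0.0160). In that scaling 15 of all 13281 genes were called lower and 1 higher. The other genes under the unadjusted threshold were Cpt2 (log2 fold change -0.23, SE 0.077), Slc25a20 (-0.19, SE 0.086), Acsl3 (-0.32, SE 0.13), Cpt1a (0.27, SE 0.11) and Hsd17b10 (0.12, SE 0.053), with adjusted p from 0.469 to 0.633 (edgeR). For Hadh, levels were 178.5, 226.5 and 246 CPM in isoproterenol and minocycline libraries, against 218, 245 and 262 CPM in isoproterenol libraries (log2 fold change -0.15, SE 0.079, adjusted p = 0.688, edgeR). The 2 treated ranges overlapped. Acot1 had 4.07, 4.802 and 5.61 CPM in isoproterenol and minocycline libraries, against 2.69, 4.03 and 4.58 CPM in isoproterenol libraries (log2 fold change 0.29, SE 0.20, adjusted p = 0.751, edgeR).

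Libraries given both drugs varied more among themselves. The median coefficient of variation over the 39 genes was 12.5% in isoproterenol and minocycline libraries, 6.92% in isoproterenol libraries and 9.28% in control libraries. Isoproterenol and minocycline 4 held the lowest value of its group in 25 of 39 genes, against 23.2% of all tested genes. Summed levels of the 39 genes were 7030 to 9695 CPM in isoproterenol and minocycline libraries and 8290 to 9411 CPM in isoproterenol libraries. Cardiomyocyte markers summed to 56110 to 68190 CPM with minocycline and 57510 to 62750 CPM without it, and adipocyte markers to 2.70 to 33.7 CPM and 0.951 to 20.04 CPM. The 39 genes made 12.2 to 14.4% of the cardiomyocyte marker sum with minocycline and 14.3 to 16.2% without it, a description that was not tested.

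**Figure D4:**
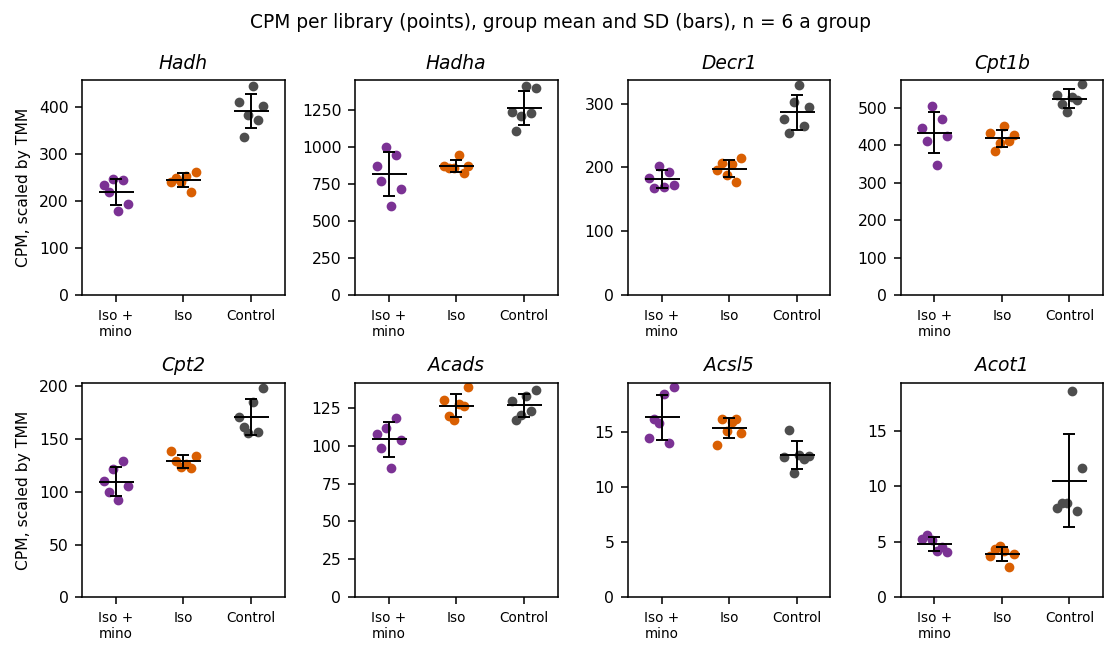
CPM of 8 genes in each library (points) with the group mean and SD (bars, n = 6), isoproterenol and minocycline at left, isoproterenol in the middle, control at right. Hadh, Hadha and Decr1 lie below control in both treated groups, Acads is lowest with minocycline, and Control 4 stands out at 18.5 CPM of Acot1.

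Isoproterenol with minocycline was last compared with control, using the same control libraries as the first comparison, so the 2 are not independent. Of the 39 genes 28 were lower and 1 higher (edgeR), where 9.05% of all genes were called lower and 10.2% higher. The median log2 fold change was -0.41, against 0.0035 over all genes. In 16 genes all libraries with both drugs lay below all control libraries, against 3.59% of all genes. Without the 4 libraries high in Myl7, 23 were lower and 0 higher, with the calls of Acsl5, Cpt1b, Acacb, Acads, Etfb and Hsd17b4 lost (adjusted p = 0.0557 to 0.138, edgeR). That fit of fewer libraries called 613 of all 13355 genes lower and 756 higher, against 1202 and 1355 of 13281 with all libraries. With the atrial covariate in all 18 libraries, 29 of 29 calls were kept. The falls by step were 6 of 9 in activation and the carnitine shuttle, 2 of 2 for malonyl-CoA, 5 of 6 dehydrogenases, 2 of 3 in electron transfer, 5 of 6 from hydration to thiolysis, 4 of 4 auxiliary, 2 of 5 peroxisomal and 2 of 4 thioesterase and uncoupling genes.

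Hadh fell to 178.5, 226.5 and 246 CPM (lowest, median, highest) in isoproterenol and minocycline libraries, against 336.5, 392 and 443 CPM in control libraries (log2 fold change -0.83, SE 0.079, adjusted p = 3.87e-07, edgeR). Hadhb fell by 0.76 on the log2 scale (SE 0.10) and Hadha by 0.63 (SE 0.095), and Decr1 by 0.66 (SE 0.068). Acadm had 383, 556 and 661 CPM in isoproterenol and minocycline libraries, against 754, 873 and 958 CPM in control libraries, without overlap (log2 fold change -0.69, SE 0.10, adjusted p = 1.26e-04, edgeR). In the shuttle, Slc25a20 fell by 0.65 (SE 0.086), Cpt2 by 0.64 (SE 0.077), and Cpt1b by 0.27 (SE 0.070). The Cpt1b call was lost with the 4 Myl7-high libraries left out (adjusted p = 0.104), with total counts (0.0789) and with libraries scaled to cardiomyocyte markers (0.320). Etfb fell by 0.21 (SE 0.053, adjusted p = 0.00950, edgeR), but its sign turned with libraries scaled to cardiomyocyte markers (log2 fold change 0.011). The Etfb call was also lost with the 4 Myl7-high libraries left out (adjusted p = 0.0557) and with total counts (0.182). Acot1 fell by 1.13 (SE 0.19), and by 0.89 without Control 4.

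Acsl1, Acads, Ehhadh and Hsd17b4 passed the test with both drugs and not with isoproterenol alone, while none of the 4 passed in the comparison of the treated groups. Acsl1 averaged 438 ± 116 CPM in isoproterenol and minocycline libraries and 665 ± 65.1 CPM in control libraries (SD, n = 6 each, log2 fold change -0.60, SE 0.14, adjusted p = 0.00721, edgeR). Ehhadh had 5.82, 6.90 and 7.71 CPM in isoproterenol and minocycline libraries, against 7.22, 9.09 and 10.99 CPM in control libraries (log2 fold change -0.44, SE 0.11, adjusted p = 0.00923, edgeR). Hsd17b4 had 46.7, 61.9 and 67.9 CPM in isoproterenol and minocycline libraries, against 66.0, 71.6 and 78.9 CPM in control libraries (log2 fold change -0.29, SE 0.088, adjusted p = 0.0258, edgeR). Both peroxisomal genes overlapped with control, and the Hsd17b4 call was lost in 4 of 18 fits that left out 1 library (Control 4 or 6, or Isoproterenol and minocycline 4 or 6, adjusted p = 0.0549 to 0.0656). In the same 4 fits the Acacb call was lost (adjusted p = 0.0508 to 0.0541), and without Isoproterenol and minocycline 3 or 5 Etfa was called (adjusted p = 0.0246 to 0.0416). With the 4 Myl7-high libraries left out, the adjusted p of Hsd17b4 was 0.109. Acads fell by 0.28 on the log2 scale (SE 0.069, adjusted p = 0.00700, edgeR). The Acads call was lost with the 4 Myl7-high libraries left out (adjusted p = 0.0777), with total counts (0.0827) and with libraries scaled to cardiomyocyte markers (0.332).

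Acsl5, a synthetase of long chains, was the 1 gene that rose with both drugs. It had 14.04, 16.0 and 19.1 CPM in isoproterenol and minocycline libraries, against 11.2, 12.8 and 15.2 CPM in control libraries, and lay above the control mean in all 6 (log2 fold change 0.34, SE 0.084, adjusted p = 0.00694, edgeR). Without the 4 libraries high in Myl7 the adjusted p was 0.0592. Ucp3 had 40.4, 44.0 and 57.4 CPM in isoproterenol and minocycline libraries and 21.0, 29.9 and 49.2 CPM in control libraries, with overlap (log2 fold change 0.50, SE 0.23, adjusted p = 0.145, edgeR). Cpt1a had 26.9, 37.6 and 43.3 CPM in isoproterenol and minocycline libraries and 31.5, 34.8 and 39.9 CPM in control libraries and was not called (log2 fold change 0.083, SE 0.11, adjusted p = 0.631, edgeR).

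Of the ratios between partners, that of Hadha to Hadhb passed the test with both drugs. The ratio of Hadha to Hadhb counts was 1.17, 1.21 and 1.25 (lowest, median, highest) in isoproterenol and minocycline libraries, against 1.06, 1.12 and 1.16 in control libraries, without overlap (log2 difference 0.13, SE 0.026). The exact permutation p was 0.00217, the smallest possible (adjusted p = 0.0130 over 12 ratio tests). With the 4 Myl7-high libraries left out the adjusted p was 0.0952, and the unadjusted exact permutation p of 0.0159 was again the smallest possible. The ratio of Etfa to Etfb was 0.831, 1.03 and 1.18 in isoproterenol and minocycline libraries, spread to both sides of the 0.946, 0.987 and 1.01 of control libraries (log2 difference 0.020, SE 0.088, exact permutation p = 0.792, adjusted p = 0.864). Between the treated groups neither ratio differed past the threshold (exact permutation p = 0.0736, adjusted p = 0.221 for Hadha to Hadhb, and p = 0.108, adjusted p = 0.260 for Etfa to Etfb). The log2 ratio of Cpt1a to Cpt1b averaged -3.54 ± 0.28 in isoproterenol and minocycline libraries and -3.89 ± 0.16 in control libraries (exact permutation p = 0.0195, adjusted p = 0.0779).

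**Figure D5:**
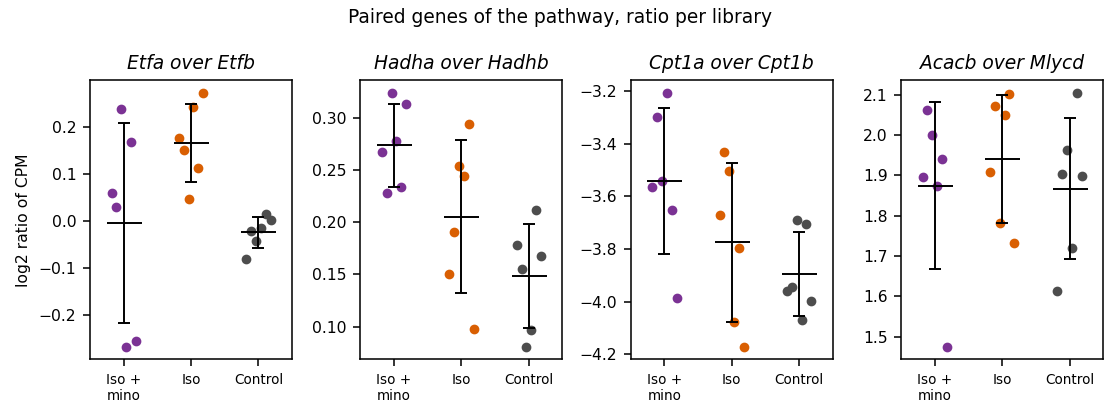
Log2 ratio of CPM between partner genes in each library (points) with the group mean and SD (bars, n = 6), isoproterenol and minocycline at left, isoproterenol in the middle, control at right. Etfa over Etfb lies above control in all 6 isoproterenol libraries, and Hadha over Hadhb lies above control in all 6 isoproterenol and minocycline libraries.

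The cardiomyocyte marker sum of 56110 to 68190 CPM in isoproterenol and minocycline libraries met the 67670 to 75770 CPM of control libraries at its upper end, with 4 of 10 markers called lower. Fibroblast markers (7 of 8), macrophage markers (6 of 8) and mural markers (3 of 6) were called higher with both drugs, with sums of 2004 to 3241, 174 to 255 and 749 to 1091 CPM against 1526 to 2027, 132 to 165 and 595 to 788 CPM in control. With libraries scaled to cardiomyocyte markers, the median of all genes moved to 0.22, and 19 of the 39 genes were lower and 4 higher. Of all 13281 genes, 351 were then called lower and 4820 higher. In that scaling the calls of Cpt1b, Mlycd, Acacb, Acads, Acad9, Etfb, Hsd17b10, Ehhadh and Hsd17b4 were lost. With total counts the median of all genes moved to 0.11. Of the 39 genes 21 were lower and 2 higher, without Cpt1b, Mlycd, Acacb, Acads, Etfb, Hsd17b10 and Hsd17b4. Of all genes, 545 were lower and 2330 higher with total counts. In the further list of neighbouring genes 20 of 39 were lower and 2 higher. The smallest p belonged to Pccb (log2 fold change -0.47, SE 0.058), Scp2 (-0.42, SE 0.054), Acat1 (-0.47, SE 0.068) and Acot7 (-0.32, SE 0.056). The called genes Mut (-0.62, SE 0.16) and Abcd2 (-0.58, SE 0.16) fell further, with larger standard errors.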

How the data were processed

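Polyadenylated RNA was sequenced as paired reads of 150 bases, which the labels' protocols say were trimmed and analysed in CLC Genomics Workbench 21.0.3. edgeR is named in the submitters' processing notes, with no role. For mapping, genome build and strand, the settings used by the authors were not given in the sources used here. Per gene, the table has read counts as deposited, and TPM values made by the authors, per the file headers. Columns were matched to libraries by the number in the description field, and 0 columns of per-library values were unmatched. Gene coordinates are those of the table, whose start and end equal those of GENCODE M21 (GRCm38) in 87.8% of genes and in 29 of the 39 described.

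The test was edgeR 4.0.16 (R 4.3.3) on the deposited counts (TMM, filterByExpr, robust glmQLFit, glmQLFTest), 1 fit for all 18 libraries. The fit kept 13281 genes, all 39 among them, with 99.93 to 99.95% of the counts. Benjamini-Hochberg adjustment ran over all genes tested. Standard errors were taken as the absolute log2 fold change over the square root of F. The biological coefficient of variation was 13.2%. On simulated counts of 13281 genes for isoproterenol versus control, 74 of 103 genes changed 1.5-fold and 86 of 97 changed 2-fold were recovered, with 6 false calls. Recovery was not simulated at 1.27-fold, the size of the median change of the 39 genes there, nor for the other comparisons. TPM was used only to order genes by level. Ratios were tested by 2-sided exact permutation with SciPy 1.17.1, adjusted over 12 tests. Replicates were distinct: over 45 pairs, chi-square divided by its degrees of freedom was 5.58 to 35.4.

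Lowest, median and highest values are given, within each step, for up to 4 genes called in any comparison with the smallest p in isoproterenol versus control, and for Cpt1a, Cpt1b, Acacb, Ucp3, Acot1, Acot2, Ehhadh and Hadh in any case. Ranges of Acads and Acsl5 beyond this were chosen after their values were seen. The genes, lists and tests were chosen with earlier results of these data known. A gene is called uncertain where an overlapping gene has at least 20% as many counts. Alternatives were DESeq2 1.42.0, limma-voom 3.58.1 with quality weights, other scalings and filters, the 12 libraries compared, no mitochondrially encoded genes, an atrial covariate, leaving out the 4 libraries high in Myl7, and leaving out each library. Scaling to total counts was added after the data were seen.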

Additional observations from a re-analysis of the deposited data

Results flagged for a closer look

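In 4 of 117 sets of 6 libraries (39 genes in 3 groups), 1 library lay apart from the other 5 by more than Dixon's 95% critical value allows, where chance gives about 1 in 20. Cpt1a, the liver form of CPT1, was at 26.85 CPM in Isoproterenol and minocycline 6, with the next lowest library at 37.34 CPM. Ucp3, the muscle uncoupling protein, reached 57.41 CPM in Isoproterenol and minocycline 3, with the next at 45.96 CPM. Acox3, the peroxisomal oxidase, reached 29.1 CPM in Isoproterenol 1, with the next at 25.35 CPM. Acot1, the cytosolic thioesterase, reached 18.52 CPM in Control 4, with the next at 11.63 CPM.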

How the results depend on the processing

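No paired analysis was possible because the sample numbers in the labels are all different, and the numbers 1 to 6 used here only name libraries within a group in order of deposit. With libraries scaled to cardiomyocyte markers, isoproterenol versus control gave 10 of the 39 genes lower and 8 higher, and 1 of the neighbouring genes lower and 10 higher. Of all 13281 genes, 143 were lower and 6690 higher after isoproterenol in that scaling, and 351 lower and 4820 higher after both drugs. After isoproterenol, Acads (0.28), Etfa (0.19), Echs1 (0.16) and Acot13 (0.27) then had log2 fold changes above 0 and were called. In that scaling, both drugs versus isoproterenol gave 1 gene lower (Acads), where 15 of all 13281 genes were lower and 1 higher. Both drugs versus control gave 4 higher in it, with 5 neighbouring genes lower and 6 higher, and Etfb at 0.011. Total counts gave 2 genes higher in each comparison with control, where 2689 of all genes were higher after isoproterenol and 2330 after both drugs. With total counts, 4 neighbouring genes were lower and 5 higher after isoproterenol, and 10 were lower after both drugs. Genes higher after isoproterenol numbered 0 with no filter and without the 4 libraries high in Myl7, and 2 in the fit of 12 libraries, with the atrial covariate, with limma-voom and with DESeq2. Neighbouring genes higher numbered 0 with a filter of 1 CPM in 6 libraries or in the fit of 12 libraries, and 2 with the covariate. Without the 4 libraries high in Myl7, 5 neighbouring genes were lower after isoproterenol, and 12 lower, 1 higher and 0 of the 39 genes higher after both drugs. In that setting the ratios of Etfa to Etfb after isoproterenol (0.22) and of Hadha to Hadhb after both drugs (0.16) had an adjusted exact permutation p of 0.0952. The unadjusted p of both was 0.0159, the smallest that 5 libraries against 4 allow, so the missed threshold says nothing of their stability. After both drugs, limma-voom gave 2 of the 39 genes and 1 neighbouring gene higher, and the filter of 1 CPM gave 1 neighbouring gene higher. DESeq2 gave 1 gene lower between the treated groups, where it called 23 of all 13281 genes lower and 14 higher.

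Leaving out each library, genes lower after isoproterenol numbered 22 to 25 and higher 0 to 2, with 5 to 11 neighbouring genes lower and 1 to 2 higher. After both drugs 26 to 29 were lower and 1 higher, with 14 to 25 neighbouring genes lower and 1 to 2 higher, and between the treated groups 0 of either. The Cpt1a to Cpt1b difference for both drugs versus control was 0.29 to 0.44, and passed the threshold only without Isoproterenol and minocycline 6 (adjusted exact permutation p = 0.0173). The cause of these changes was not tested. At 1.19 TPM in control, Acsl3 had 1401 counts over 18 libraries, so its values carry the largest counting error of the 39 genes.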
